A study of Mus musculus with 2 samples.

Results

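Inflammatory macrophages carrying Il1b and Ptgs2 transcripts were 937 of 10801 kept barcodes from immune cells of B16 melanoma tumors. They were 177 of 5576 kept barcodes in the shSdc1 library and 760 of 5225 in the shRFP library. The members were chosen by their raw counts of UMIs, the molecule tags that count single transcripts. UMIs of Il1a, Il1b, Ptgs2, Cxcl3 and Clec4e had to sum to at least 4. This inflammatory sum also had to be larger than each of 3 other sums. These were a monocyte sum (Hp, Chil3, Plac8, Ifitm6 and Ly6c2), a hypoxic sum (Ero1l, Egln3, Vegfa, Hilpda and Ndrg1) and a C1q and Ccl8 macrophage sum (Ccl8, Stab1, Selenop, Cbr2, Gas6 and Ms4a7). A member also had at least 1 UMI of Lyz2, the myeloid lysozyme gene, and none of Cd3d, Cd3e, Cd3g or Cd209a. Kept barcodes had at least 200 detected genes and under 10% of their UMIs from mitochondrial genes.

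Both libraries came from wild-type mice that had first been immunized under the skin of the left flank with irradiated B16-GM-CSF cells, a B16 line making the growth factor GM-CSF. After 12 days the mice received B16 cells with a hairpin against Sdc1 (shSdc1) or with the control hairpin shRFP on the opposite side, and 16 days later the 6 tumors of a group were pooled. Tumors were digested with enzymes for 15 min at 37 °C, live CD45+ cells were sorted, and 10x 3' libraries were made. The genotype label of the shSdc1 library reads Sdc1 knock out, whereas its title and the protocol place a hairpin in the injected tumor cells. The hosts were wild type in both groups, and the protocol describes no change of Sdc1 in the sorted host cells. Age and sex of the mice were not given.

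Each group was 1 library, so no difference below has a replicate check and none was tested. Intervals given in brackets are 95% intervals of counting error alone. The pools of 6 tumors hide any spread between mice, and library and group cannot be told apart. The libraries held 4370725 UMIs in shSdc1 and 4255928 in shRFP, with medians of 601 and 662 UMIs per kept barcode. The members' medians were 860 UMIs in shSdc1 and 809 in shRFP, and together they held 173719 and 707725 UMIs. The libraries shared 20 barcode sequences, of which 0 belonged to members.

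Interleukin-1 alpha and interleukin-1 beta, encoded by Il1a and Il1b, are alarm cytokines that act through the interleukin-1 receptor and start inflammation and neutrophil recruitment. Ptgs2 encodes cyclooxygenase 2, which makes the precursor of prostaglandin E2. Cxcl3 encodes a chemokine that attracts neutrophils, and Clec4e encodes Mincle, a receptor for microbial glycolipids and for products of dying cells. In pancreatic cancer, macrophages rich in interleukin-1 beta have been described as coming from monocytes that met prostaglandin E2 and tumor necrosis factor. Complement-rich and hypoxic macrophages are other states found in tumors. Sdc1 encodes syndecan-1, a heparan sulfate proteoglycan of the cell surface.

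Promoters of 8 genes were searched, and those of 5 are shown. Il1b, Ptgs2 and Cxcl3 are genes of the rule, and Cxcl2 and Cxcl1 are chemokine genes outside it that were at least 2-fold higher in the members than in each other class. The sequences run from 250 bases before to 50 bases after the start of the gene, 5′ to 3′ on the gene's strand, from RefSeq on build GRCm38.p6, and all 8 genes looked up were matched. Capitals mark matches to searched motifs.
Il1b, chr2:129371090-129371389, minus strand: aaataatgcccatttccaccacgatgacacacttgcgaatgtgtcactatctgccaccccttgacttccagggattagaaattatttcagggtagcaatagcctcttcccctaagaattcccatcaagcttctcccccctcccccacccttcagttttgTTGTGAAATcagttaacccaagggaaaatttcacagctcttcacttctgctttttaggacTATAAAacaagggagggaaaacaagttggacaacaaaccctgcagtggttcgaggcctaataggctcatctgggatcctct
Ptgs2, chr1:150099781-150100080, plus strand: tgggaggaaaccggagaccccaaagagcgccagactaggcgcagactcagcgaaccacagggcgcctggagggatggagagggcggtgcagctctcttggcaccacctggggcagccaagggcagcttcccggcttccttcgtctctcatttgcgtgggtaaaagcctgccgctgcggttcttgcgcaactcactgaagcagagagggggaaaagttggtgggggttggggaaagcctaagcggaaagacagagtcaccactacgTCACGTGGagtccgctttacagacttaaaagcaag
Cxcl3, chr5:90785851-90786150, plus strand: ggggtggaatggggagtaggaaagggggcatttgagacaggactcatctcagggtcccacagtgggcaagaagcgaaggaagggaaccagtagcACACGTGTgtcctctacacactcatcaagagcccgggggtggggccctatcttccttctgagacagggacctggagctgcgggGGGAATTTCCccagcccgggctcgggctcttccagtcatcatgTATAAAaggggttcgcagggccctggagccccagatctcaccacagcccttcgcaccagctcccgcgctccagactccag
Cxcl2, chr5:90903649-90903948, plus strand: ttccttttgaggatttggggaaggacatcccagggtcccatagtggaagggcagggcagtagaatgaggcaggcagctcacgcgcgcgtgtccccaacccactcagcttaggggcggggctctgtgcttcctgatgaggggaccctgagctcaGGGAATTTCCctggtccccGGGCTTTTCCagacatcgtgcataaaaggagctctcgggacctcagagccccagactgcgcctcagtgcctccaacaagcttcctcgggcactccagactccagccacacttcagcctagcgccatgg
Cxcl1, chr5:90890995-90891294, plus strand: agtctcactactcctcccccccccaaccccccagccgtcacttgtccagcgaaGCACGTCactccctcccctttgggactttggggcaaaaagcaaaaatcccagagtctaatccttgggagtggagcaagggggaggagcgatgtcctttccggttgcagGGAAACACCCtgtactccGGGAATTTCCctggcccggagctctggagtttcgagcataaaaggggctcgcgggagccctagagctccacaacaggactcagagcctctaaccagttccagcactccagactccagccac
The motifs were NF-kB (GGG, any 2 bases, then TTTCC), C/EBP (TTNNGNAAT), AP-1 (TGANTCA) and the hypoxia response element (NACGTGN), each on both strands, and the TATA box (TATAAA) on the gene's strand. The hypoxia motif can match overlapping letters on both strands, as it did in Ptgs2 and Cxcl3. Cxcl3 held an NF-kB match starting 73 bases before its start. Cxcl2 held NF-kB matches at 97 and 78 bases, and Cxcl1 at 89 and 71 bases. GGGAATTTCC stood in all 3 of these chemokine promoters, which lie near each other on chromosome 5. Il1b held a C/EBP match at 91 bases and a TATA box at 31 bases before its start. Il1a, Clec4e and Tnf were searched too and are not shown. Il1a held an AP-1 match and a TATA box, Clec4e a hypoxia match and a TATA box, and Tnf a TATA box alone. The promoters of Il1b, Ptgs2, Il1a, Clec4e and Tnf held no match to the NF-kB letters. Of 32851 RefSeq promoters of this length, 1.63% held the NF-kB letters, 11.5% the C/EBP letters, 7.81% the AP-1 letters, 19.6% the hypoxia letters and 8.32% the TATA letters. A match describes letters and is no proof of binding.

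The genes of the rule had these levels in the members, in counts per 1000000 UMIs of the summed barcodes (CPM). Since these values chose the members, they describe the selection. Il1b (ENSMUSG00000027398, chr2:129364570-129371139, build GRCm38) had 6234 CPM in shSdc1 members and 7297 CPM in shRFP members, and 94.4% and 95.3% of members held a UMI of it. Ptgs2 (ENSMUSG00000032487, chr1:150100031-150108227) had 1635 CPM in shSdc1 and 1956 CPM in shRFP, in 61.0% and 63.9% of members. The other genes of the sum were seen in fewer members. Clec4e (chr6:123281789-123289870) had 743 CPM in shSdc1 and 1106 CPM in shRFP, in 40.7% and 51.8% of members. Cxcl3 (chr5:90786103-90789600) had 604 CPM in shSdc1 and 504 CPM in shRFP, in 20.3% and 16.4% of members. Il1a (chr2:129299610-129309972) had 368 CPM in shSdc1 and 394 CPM in shRFP, in 23.2% and 19.1% of members. T cell barcodes, defined by a Cd3 UMI and no Lyz2 UMI, should lack these transcripts and gave a background: 1.42% of 1339 in shSdc1 and 2.67% of 712 in shRFP held an Il1b UMI, at median depths of 490 and 433 UMIs. The same background was 0.747% in shSdc1 and 0.702% in shRFP for Ptgs2, and 0.523% and 0.281% for Clec4e. For Cxcl3 and for Il1a it was 0.299% in shSdc1 and 0.14% in shRFP. Asking for no Lyz2 also removes T cell barcodes with stray myeloid RNA or a second cell, which lowers this background. Over all 1494 and 816 barcodes with a Cd3 UMI, Il1b was seen in 2.21% in shSdc1 and 6.005% in shRFP, Ptgs2 in 1.20% and 3.55%, and Clec4e in 0.87% and 2.45%.

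Within a member the inflammatory transcripts were unevenly spread. The inflammatory sum had a median of 7 UMIs in shSdc1 members, with a range of 4 to 51, and a median of 8 in shRFP members, with a range of 4 to 59. It stood at 4, the lowest value allowed, in 37 members of shSdc1 and 106 of shRFP. With the other conditions met, the sum was 3, just outside the rule, in 34 barcodes of shSdc1 and 70 of shRFP. At least 3 of the 5 genes were seen in 43.5% of shSdc1 members and 47.6% of shRFP members, and only 1 of them in 23.7% and 18.4%. Il1b and Ptgs2 were seen together in 55.9% of shSdc1 members and 60.4% of shRFP members. Ptgs2 without Il1b was rare, at 5.08% in shSdc1 and 3.55% in shRFP. Cxcl3 was concentrated in few cells: the tenth of members with most Cxcl3 UMIs, 18 in shSdc1 and 76 in shRFP, held 81.9% and 86.3% of them. For Il1b the same share was 28.0% in shSdc1 and 25.8% in shRFP.

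The macrophage label was checked against marker lists of the cell types that the CD45+ sort could hold. All 13 macrophage genes were seen in both libraries, at a summed 11818 CPM in shSdc1 members and 8987 CPM in shRFP members. The sum was 11181 and 6842 CPM in the monocyte class and 13100 and 10512 CPM in the hypoxic class. In the C1q and Ccl8 class it was 38946 and 32729 CPM. The sum alone thus does not tell macrophages from monocytes. Csf1r, the receptor for the macrophage growth factor, had 305 CPM in shSdc1 and 315 CPM in shRFP, and Fcgr1, an Fc receptor of monocytes and macrophages, had 357 and 362 CPM. Adgre1, which encodes F4/80, was low, with 121 CPM in shSdc1 and 102 CPM in shRFP, against 418 and 449 CPM in the C1q and Ccl8 class. The 9 monocyte genes summed to 1451 CPM in shSdc1 members and 2402 CPM in shRFP members. Part of that list stands in the rule's monocyte sum.

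Neutrophils also make Il1b, Cxcl2, Cxcl3 and Clec4e, so their markers matter here. The 15 neutrophil genes summed to 668 CPM in shSdc1 members and 909 CPM in shRFP members, against 69.1 to 138 CPM and 42.4 to 489 CPM in the other 3 classes. Cxcr2, Retnlg, Ly6g, Camp, Ngp and Ltf were at 0 in shSdc1, and Ly6g and Camp in shRFP. Of the 7 neutrophil-defining genes Csf3r, Cxcr2, Retnlg, Ly6g, Camp, Ngp and Ltf, a UMI was seen in 3.39% of shSdc1 members and 4.08% of shRFP members. Csf3r, which monocytes also express, was seen in 6 and 27 of these members and made up nearly all of that share. In shSdc1 Csf3r was also seen in 4.33% of C1q and Ccl8 barcodes, 2.35% of hypoxic barcodes and 0% of monocyte barcodes. In shRFP it was seen in 5.36% of monocyte barcodes. Since other classes also held Csf3r, this share alone does not count neutrophils. At least 3 UMIs of the 15 genes were held by 8 members of shSdc1 and 43 of shRFP. S100a9, which encodes a calprotectin subunit abundant in neutrophils, was seen in 3.95% of shSdc1 members and 2.11% of shRFP members, and 1 barcode held 41.2% and 41.1% of its UMIs. Which cell type these barcodes are was not tested.

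Markers of dendritic cells were present at a level that differed between the libraries. The 9 genes of conventional dendritic cells type 2 summed to 674 CPM in shSdc1 members and 338 CPM in shRFP members, a ratio of 1.99 [1.58 to 2.50]. Mgl2, which alternatively activated macrophages also express, gave 72 of the 117 UMIs in shSdc1 and 107 of the 239 in shRFP. In shSdc1 1 barcode held 22.2% of the Mgl2 UMIs. The ratio thus rests largely on 1 gene that is not particular to dendritic cells. Flt3, Zbtb46 and Dpp4 were at 0 in shSdc1, and Cd209a was at 0 in both by the rule. A UMI of this list, leaving out Itgax and Ltb, was seen in 24.3% of shSdc1 members and 10.8% of shRFP members. The 9 genes of type 1 dendritic cells summed to 553 CPM in shSdc1 and 420 CPM in shRFP, and the 9 of migratory dendritic cells to 317 and 240 CPM. Plasmacytoid dendritic cell genes summed to 104 and 98.9 CPM. T cell genes summed to 317 CPM in shSdc1 and 196 CPM in shRFP, with the Cd3 genes at 0 by the rule. NK cell genes summed to 17.3 and 25.4 CPM, B and plasma cell genes to 5.76 and 17.0 CPM, endothelial genes to 40.3 and 26.8 CPM, and melanoma genes to 17.3 and 45.2 CPM. Pmel, Mlana, Tyrp1, Dct, Tyr and Sox10 were among the melanoma genes at 0 in both libraries. Mast cell, fibroblast and red cell genes were at 0 in both.

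The inflammatory macrophages took a smaller share of the shSdc1 library. They were 3.17% of kept barcodes in shSdc1 [2.73 to 3.67] and 14.5% in shRFP [13.6 to 15.5], a ratio of 0.218 [0.184 to 0.257]. Among barcodes with Lyz2 and no Cd3 or Cd209a UMI they were 7.28% of 2430 in shSdc1 and 25.9% of 2939 in shRFP, a ratio of 0.282 [0.238 to 0.332]. The other 3 sums defined a monocyte, a hypoxic and a C1q and Ccl8 class under the same conditions, giving 4 classes that do not overlap. Among barcodes of these 4 classes the inflammatory macrophages were 15.8% of 1117 in shSdc1 and 49.8% of 1527 in shRFP, a ratio of 0.318 [0.269 to 0.375]. The C1q and Ccl8 class went the other way, with 785 barcodes in shSdc1 and 316 in shRFP. The monocyte class had 70 barcodes in shSdc1 and 317 in shRFP, and the hypoxic class 85 and 134.

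**Figure D1:**
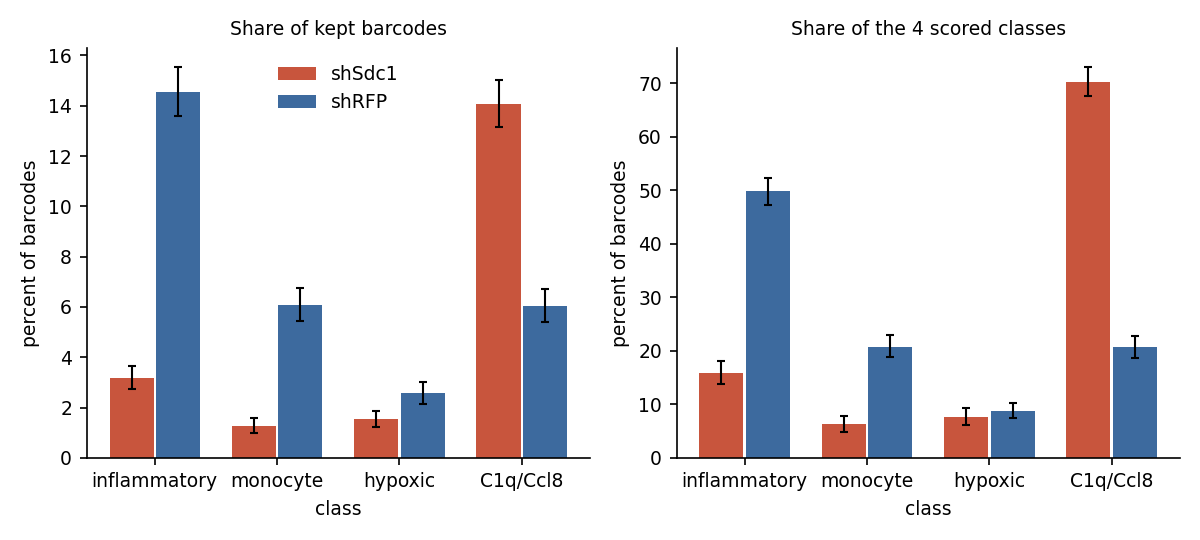
Share of barcodes in the 4 classes in the shSdc1 library (left bar of each pair) and the shRFP library (right bar), as percent of kept barcodes (left panel) and of the 4 classes (right panel), with exact Clopper-Pearson 95% intervals. The inflammatory bars stand at 3.17% and 14.5% of kept barcodes, and the C1q and Ccl8 bars at 14.1% and 6.05%.

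The difference in share was close in size without any single gene of the sum and after depth was made equal. With each gene left out of the sum in turn, the ratio of shares among kept barcodes ran between 0.205 and 0.219. When barcodes were thinned to 1000 UMIs, the members were 4.13% of 1331 in shSdc1 and 16.5% of 1325 in shRFP, with 4245 and 3900 shallower barcodes left out. The same barcodes unthinned gave 5.26% and 19.0%. Barcodes that had a sum of at least 4 and lost membership through another condition were 83 in shSdc1 and 198 in shRFP without Lyz2, 18 and 41 with Cd209a, and 14 and 25 with a Cd3 UMI. A further 32 in shSdc1 and 103 in shRFP had another sum at least as large.

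The members held most of the inflammatory transcripts in shRFP and a smaller part in shSdc1. Of all Il1b UMIs in kept barcodes, 46.9% in shSdc1 and 66.3% in shRFP were in members, and of Ptgs2 UMIs 41.3% and 62.1%. Over all kept barcodes Il1b stood at 539 CPM in shSdc1 and 1891 CPM in shRFP, and Ptgs2 at 160 and 542 CPM.

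To read a gene of the rule in barcodes it did not choose, each was left out of the sum and the classes were formed again. Il1b, the cytokine gene, then had 5988 CPM in 57 shSdc1 members and 6643 CPM in 261 shRFP members, a ratio of 0.901 [0.799 to 1.01]. In those classes it had 2174 and 3566 CPM in hypoxic barcodes, 1316 and 2645 CPM in monocyte barcodes, and 152 and 294 CPM in C1q and Ccl8 barcodes. The members were highest in both libraries with Il1b left out of the sum. Ptgs2 had 1344 CPM in shSdc1 and 1732 CPM in shRFP, a ratio of 0.776 [0.663 to 0.904]. Clec4e had 603 CPM in shSdc1 and 966 CPM in shRFP, a ratio of 0.625 [0.498 to 0.776]. Il1a had 298 and 369 CPM and Cxcl3 502 and 394 CPM, with ratios of 0.807 [0.584 to 1.10] and 1.27 [0.984 to 1.63]. Clec4e was the gene of the rule that stood farthest apart between the libraries. All 5 left-out genes were higher in the members than in each other class of the same library. The 5 genes were chosen together with earlier results of these data known. Barcodes of the other classes also had to hold less of the remaining inflammatory sum than of their own. The higher levels in the members are thus in part what the selection brings, and are no independent check.

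**Figure D2:**
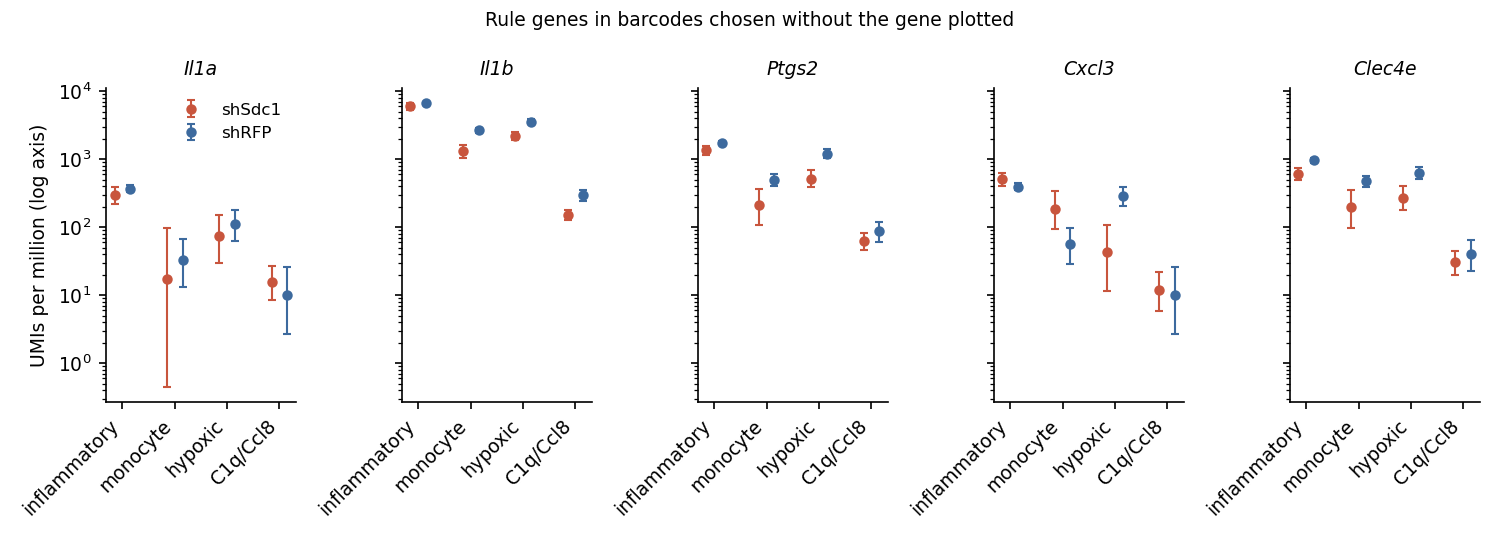
Level of each rule gene, in CPM on a log axis, in the 4 classes formed without that gene, for shSdc1 (left point) and shRFP (right point), with exact Poisson 95% intervals. The members are highest for each gene in both libraries, and the C1q and Ccl8 barcodes are near the bottom of each panel.

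Outside the genes of the rule, few genes set the members apart from all 3 other classes at once. Of 5888 genes with at least 20 UMIs over the 4 classes in each library, 7 were at least 2-fold higher than in each class in both libraries (0.119%), and 5 were at least 2-fold lower (0.0849%). The 7 were Cxcl1, Cxcl2, Tnf, Areg, Ell2, Nfat5 and S100a9. The 5 were Hgsnat, Gmnn, Irf2bpl, Drg2 and Il18bp, all with low counts in the members. Since the members were selected on inflammatory genes, genes that vary with those are part of what the selection brings.

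Cxcl2, a chemokine gene for neutrophils, had 11052 CPM in shSdc1 members and 13252 CPM in shRFP members. The hypoxic class had 4012 and 5888 CPM of Cxcl2, the monocyte class 2300 and 2557 CPM, and the C1q and Ccl8 class 1035 and 1709 CPM. A Cxcl2 UMI was seen in 86.4% of shSdc1 members and 89.6% of shRFP members, against 3.29% and 5.20% of T cell barcodes. Cxcl1, a neighbouring gene with a similar role, had 777 CPM in shSdc1 members and 886 CPM in shRFP members, with 309 and 391 CPM in the hypoxic class. Tnf, the tumor necrosis factor gene, had 1278 and 1095 CPM in members, in 47.5% and 45.4% of them against 2.24% and 1.12% of T cell barcodes, and 415 and 338 CPM in the hypoxic class. Tnf was at least 3.08-fold higher than in any other class of the same library. Ell2, an elongation factor of RNA polymerase II, had 190 and 171 CPM in members and 52.6 to 70.8 CPM in the other classes. Its monocyte and hypoxic values rest on 4 to 12 UMIs. In shSdc1 its fold over the monocyte class was 2.68 [0.955 to 10.4]. Nfat5, a transcription factor of osmotic stress that also acts in macrophages, had 155 CPM in shSdc1 members and 167 CPM in shRFP members. Its monocyte and hypoxic values rest on 3 to 14 UMIs, and its fold over the shSdc1 monocyte class was 2.93 [0.901 to 15.1]. Areg, the gene of the epidermal growth factor receptor ligand amphiregulin, had 155 and 205 CPM in members and 0 UMIs in the C1q and Ccl8 class.

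**Figure D3:**
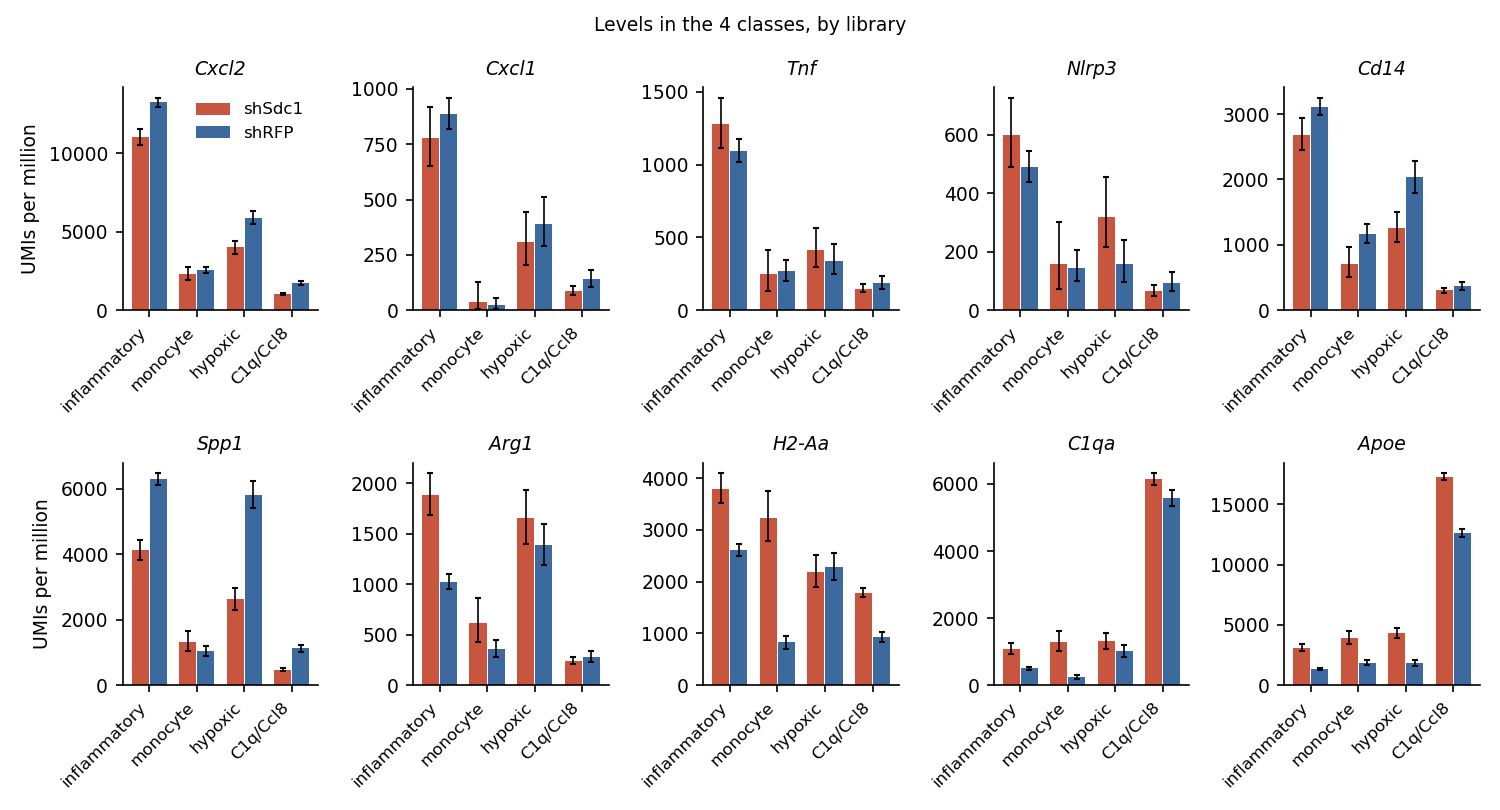
Levels of 10 genes outside the rule, in CPM, in the 4 classes for shSdc1 (left bar) and shRFP (right bar), with exact Poisson 95% intervals. Cxcl2, Cxcl1, Tnf, Nlrp3 and Cd14 are highest in the inflammatory class in both libraries, and C1qa and Apoe in the C1q and Ccl8 class.

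The nearest of the other classes was the hypoxic one, where 50 genes were at least 2-fold higher in the members in both libraries (0.849%) and 75 at least 2-fold lower (1.27%). Against the monocyte class 76 genes were higher (1.29%) and 183 lower (3.11%). Against the C1q and Ccl8 class 311 were higher (5.28%) and 297 lower (5.04%). These shares of all genes tested are the background for the lists that follow. The classes differ in size and depth, and small classes give noisier folds.

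Genes of NF-kB, the transcription factor that drives inflammatory genes, and of its feedback formed the list with most members above the C1q and Ccl8 class. There 14 of 22 measured genes were at least 2-fold higher in both libraries and 0 lower, with list medians of 1.51 in shSdc1 and 1.35 in shRFP on the log2 scale, against -0.14 and -0.16 over all genes. Against the monocyte class 6 of 22 were higher, and against the hypoxic class 1, Birc3. Nfkbia, which encodes the inhibitor of NF-kB, had 3483 CPM in shSdc1 members and 3596 CPM in shRFP members, with 508 and 616 CPM in the C1q and Ccl8 class. Tnfaip3, which encodes the feedback enzyme A20, had 835 and 688 CPM in members, with 124 and 200 CPM in that class. Nfkbiz, a nuclear cofactor needed for secondary response genes, had 944 and 948 CPM in members, with 142 and 279 CPM there.

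Among AP-1 and immediate early genes 11 of 21 were at least 2-fold higher than in the C1q and Ccl8 class in both libraries. Junb had 2780 CPM in shSdc1 members and 2825 CPM in shRFP members, with 685 and 911 CPM in that class. Against the monocyte class 2 of these 21 genes were higher, Fosb and Egr2, and against the hypoxic class 2, Dusp2 and Nr4a2. Of the EGF-like and activin growth factors, Inhba, which encodes a subunit of activin A, had 271 and 444 CPM in members and 2.42 and 2.50 CPM in the C1q and Ccl8 class, where 2 and 1 UMIs were seen. Inhba in the hypoxic class had 170 and 278 CPM.

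Extracellular matrix genes also stood above the C1q and Ccl8 class, with 7 of 12 at least 2-fold higher and Timp2 lower. Spp1, which encodes osteopontin, had 4127 CPM in shSdc1 members and 6286 CPM in shRFP members, with 480 and 1125 CPM there. Fn1, the fibronectin gene, had 1002 and 1789 CPM in members, with 66.7 and 190 CPM there. Thbs1, the thrombospondin 1 gene, had 2769 and 4040 CPM in members, with 139 and 217 CPM there. In the hypoxic class Thbs1 had 2841 CPM in shSdc1 and 3369 CPM in shRFP, so this gene did not separate the members from hypoxic barcodes. Of the 12 matrix genes, 0 were at least 2-fold higher or lower than in the hypoxic class. Against the monocyte class 3 were higher, Spp1, Mmp12 and Mmp13. Spp1 had 2618 and 5820 CPM in the hypoxic class, and Fn1 had 787 and 1143 CPM. The urokinase receptor gene Plaur had 720 and 1036 CPM in members and 108 and 165 CPM in the C1q and Ccl8 class.

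Genes for antigen presentation by MHC class II were higher in the members than in the C1q and Ccl8 class, with 5 of 7 at least 2-fold higher in both libraries. Against the monocyte class and against the hypoxic class 0 of 7 were. H2-Aa, which encodes an MHC class II chain, had 3793 CPM in shSdc1 members and 2603 CPM in shRFP members, with 1789 and 926 CPM in the C1q and Ccl8 class. The hypoxic class had 2192 and 2278 CPM of H2-Aa, and the monocyte class 3238 and 827 CPM. The gene list of type 2 dendritic cells stood higher in the members too, at 674 and 338 CPM against 165 and 169.7 CPM in the C1q and Ccl8 class. Mgl2 made up 414 and 151 CPM of it in the members, and the list's part here was not tested. MHC class I genes gave 0 of 12 in either direction against any of the 3 classes. The costimulatory and checkpoint list had 5 of 10 higher than the C1q and Ccl8 class, among them Cd274, which encodes PD-L1, with 178 and 162 CPM in members and 60.6 and 42.4 CPM there. Against the monocyte class 1 of these 10 was higher, Cd83, and 1 lower, Cd40, and against the hypoxic class 0 were higher. CC and interferon-induced chemokines had 8 of 14 higher than the C1q and Ccl8 class and 3 lower, Cxcl9, Cxcl16 and Ccl12. Against the monocyte class 5 of 14 were higher and 1 lower, and against the hypoxic class 1 was higher, Cxcl10.

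In contrast, 7 of 20 complement and lipid genes were at least 2-fold lower in the members than in the C1q and Ccl8 class, and 1, Cd9, was higher. Apoe, the apolipoprotein E gene, had 3108 CPM in shSdc1 members and 1317 CPM in shRFP members, with 17311 and 12625 CPM there. C1qa, a chain of complement C1q, had 1094 and 503 CPM in members, with 6152 and 5585 CPM there. Among 17 proliferation genes 8 were lower and 0 higher than in that class. Against the monocyte class 6 of 21 type I interferon genes were lower and 0 higher. Irf7, which encodes a regulator of interferon genes, had 184 CPM in shSdc1 members and 119 CPM in shRFP members, with 602 and 277 CPM in monocyte barcodes. The hypoxia and glycolysis list had 6 of 24 higher than the C1q and Ccl8 class and 3 of 24 lower than the hypoxic class. Its Pfkfb3, an activator of glycolysis, had 23.03 and 73.5 CPM in members and 192 and 203 CPM in the hypoxic class.

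**Figure D4:**
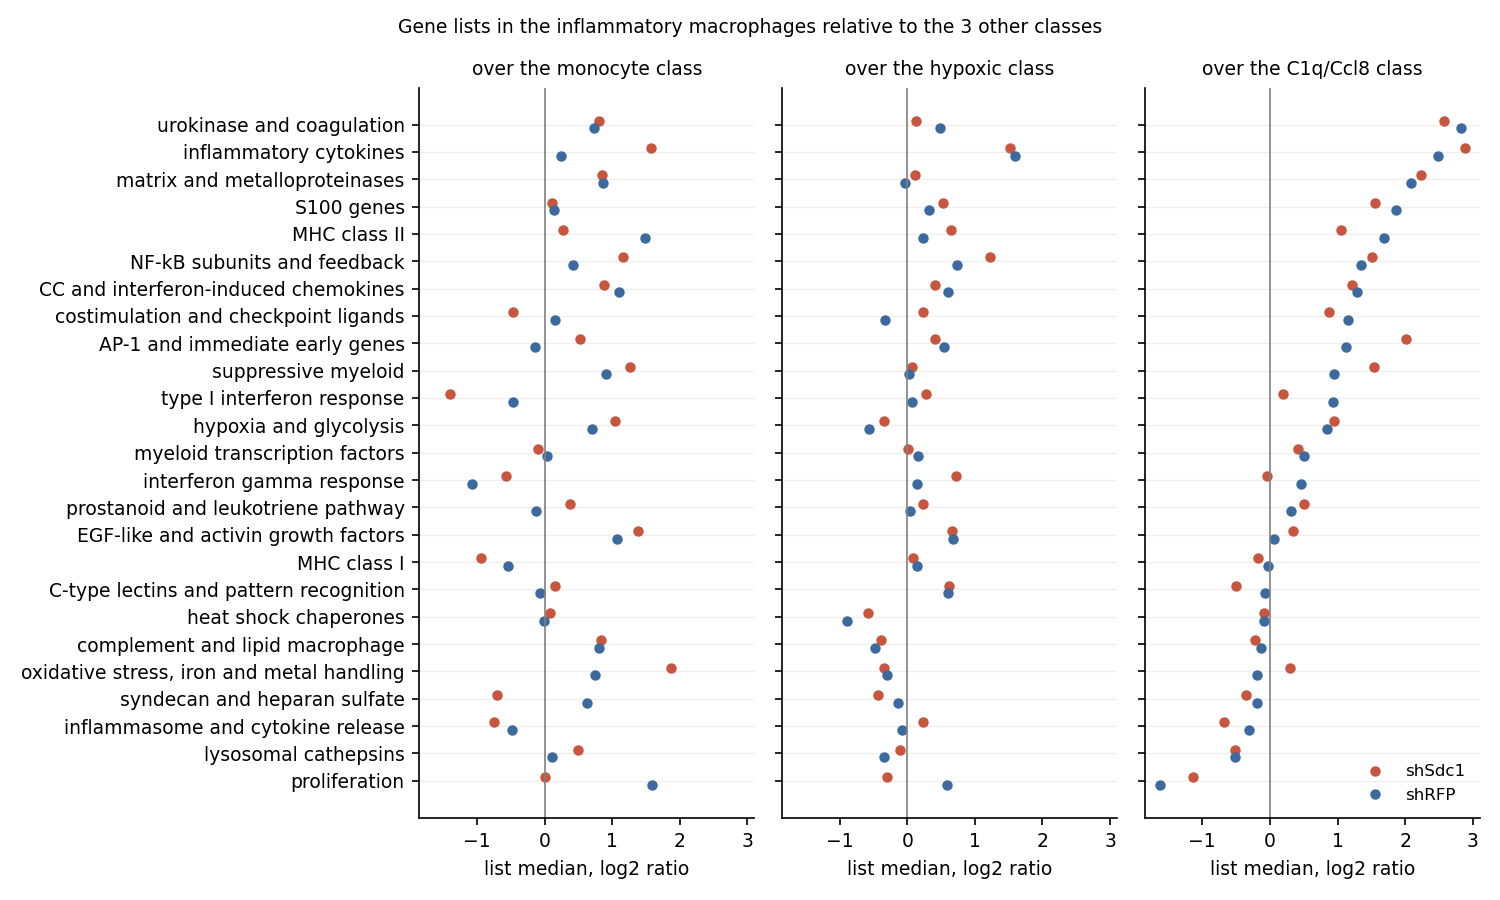
Median log2 ratio of each gene list in the inflammatory macrophages over the monocyte, hypoxic and C1q and Ccl8 classes, within the shSdc1 library (upper point of each pair) and the shRFP library (lower point), for lists with at least 5 measured genes. The NF-kB list lies at 1.51 and 1.35 over the C1q and Ccl8 class, and at 1.22 and 0.74 over the hypoxic class.

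Other genes of the interleukin-1 and prostaglandin pathways were seen in part. Of 13 listed receptors, antagonists and decoys, 2 had at least 20 UMIs in members. Il1rn, which encodes the interleukin-1 receptor antagonist, had 1249 CPM in shSdc1 members and 1252 CPM in shRFP members, a ratio of 0.998 [0.856 to 1.16]. In the C1q and Ccl8 class Il1rn had 257 CPM in both libraries. Il1r2, the decoy receptor gene, had 92.1 and 114 CPM in members. Nlrp3, the sensor of the inflammasome that matures interleukin-1 beta, had 599 CPM in shSdc1 members and 489 CPM in shRFP members, with 65.4 and 94.8 CPM in the C1q and Ccl8 class. Casp1, the protease of that complex, had 28.8 and 38.2 CPM in members, with 21.3 to 53.1 CPM in the other shSdc1 classes and 37.6 to 79.9 CPM in the other shRFP classes. Ptges, which encodes the enzyme that turns the Ptgs2 product into prostaglandin E2, had 1 UMI in shSdc1 members and 5 in shRFP members. Alox5ap, a partner of 5-lipoxygenase in leukotriene synthesis, had 812 and 774 CPM in members. Of the 22 listed prostanoid and leukotriene genes, 6 were measured between the libraries and 1, Lta4h, was past 1.5-fold, with 10 and 24 UMIs.

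Members differed in which other sum came next to the inflammatory one. The hypoxic sum was next in 52.0% of shSdc1 members and 46.6% of shRFP members. The monocyte sum was next in 15.3% and 26.2%, and the C1q and Ccl8 sum in 12.4% and 6.84%. All 3 other sums were at 0 in 15.8% of shSdc1 members and 11.7% of shRFP members, and 4.52% and 8.68% had a tie. A monocyte UMI of the rule was seen in 28.8% of shSdc1 members [22.3 to 36.1] and 44.2% of shRFP members [40.6 to 47.8], and a hypoxic one in 66.7% and 65.1%.

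The subsets differed in the levels of genes outside the rule. They were split by the other rule sums, so genes that vary with those sums are part of what the split brings. Inhba had 410 CPM in shSdc1 members and 711 CPM in shRFP members next to the hypoxic sum, and 83.3 and 31.9 CPM in those next to the C1q and Ccl8 sum. Thbs1 had 3602 and 4774 CPM next to the hypoxic sum, 3078 and 4389 CPM next to the monocyte sum, and 1749 and 1147 CPM next to the C1q and Ccl8 sum. Arg1, which encodes arginase 1, had 2352 and 1396 CPM next to the hypoxic sum and 360 and 236 CPM where all 3 sums were at 0. Next to the C1q and Ccl8 sum Arg1 had 2415 and 972 CPM, and next to the monocyte sum 1115 and 456 CPM. In shRFP C1qa had 1768 CPM next to the C1q and Ccl8 sum, 281 CPM next to the hypoxic sum and 160 CPM next to the monocyte sum. In shSdc1 the same subsets had 1832, 977 and 535 CPM of C1qa. Subsets of shSdc1 were small, with 92, 27, 28 and 22 members next to the hypoxic, the monocyte, no and the C1q and Ccl8 sum.

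Genes outside the rule also varied with the size of the inflammatory sum. In members with a sum of 4 to 5, Cxcl2 had 6860 CPM in shSdc1 and 9762 CPM in shRFP, and in members with at least 10 it had 15982 and 16971 CPM. Cxcl1 had 490 and 472 CPM at a sum of 4 to 5, and 1320 and 1274 CPM at 10 or more. Both chemokine genes were higher in members with more of the chosen transcripts, in each library. Apoe ran the other way, with 4261 CPM in shSdc1 and 1610 CPM in shRFP at a sum of 4 to 5, and 1535 and 1126 CPM at 10 or more. Median depth was 662 and 729 UMIs in members with a sum of 4 to 5, and 1030 and 844 UMIs at 10 or more. A sum of at least 10 was found in 32.2% of shSdc1 members [25.4 to 39.6] and 42.4% of shRFP members [38.8 to 46.0].

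Between the libraries, 5037 genes had at least 20 UMIs in the members of both together. Of these 651 were at least 1.5-fold higher in shSdc1 members (12.9%) and 810 at least 1.5-fold lower (16.1%), and the median log2 ratio over all of them was -0.02. Without the barcode holding most UMIs of each gene, 353 were higher and 1136 lower. With fewer members in shSdc1, 1 barcode holds a larger part of a gene there, for Apoe 8.52% against 2.68% in shRFP. A shift toward lower is thus built into this setting. With edgeR's TMM scaling, which shifts log2 ratios by -0.09, 507 were higher and 1021 lower. Many of these genes have few UMIs, so their folds carry wide counting intervals. The shares of 12.9% higher and 16.1% lower are the background for the list counts between the libraries below.

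Most inflammatory genes were within 1.5-fold between the libraries. Of 23 NF-kB genes 2, Tnfaip2 and Icam1, were at least 1.5-fold higher and 0 lower, and the median log2 ratio was -0.01. Cxcl2 had a ratio of 0.834 [0.794 to 0.876], Cxcl1 of 0.877 [0.723 to 1.06], Tnf of 1.17 [1.001 to 1.36] and Nlrp3 of 1.22 [0.974 to 1.53]. The 4 neutrophil-attracting chemokine genes measured gave 0 past 1.5-fold. Of 21 AP-1 and immediate early genes 2, Atf3 and Maff, were lower, with a median of -0.13. Osm, the gene of the cytokine oncostatin M, stood farther apart, with 374 CPM in shSdc1 members and 665 CPM in shRFP members, a ratio of 0.562 [0.427 to 0.730]. Of 8 inflammatory cytokine genes Csf1 and Il15 were past 1.5-fold higher, and Osm, Lif and Il10 past 1.5-fold lower.

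The complement C1q genes and Apoe were higher in shSdc1 members. Of 20 complement and lipid genes 6 were at least 1.5-fold higher and 0 lower, and the list's median log2 ratio was 0.21. Apoe had 3108 CPM in shSdc1 members and 1317 CPM in shRFP members, a ratio of 2.36 [2.12 to 2.63]. Its ratio was 2.11 in the monocyte class, 2.32 in the hypoxic class and 1.37 in the C1q and Ccl8 class. C1qa had 1094 and 503 CPM, a ratio of 2.17 [1.81 to 2.60], and was seen in 33.3% and 15.1% of members. In the other classes C1qa had ratios of 5.39, 1.29 and 1.10 in the same order. C1qc had 783 and 398 CPM, a ratio of 1.96 [1.59 to 2.42], and ratios of 2.64, 1.25 and 1.11 there. Apoe and C1q were thus higher in shSdc1 in all 4 classes. Among the 28 shSdc1 and 89 shRFP members with the other 3 sums at 0, the ratio of Apoe was 2.83, that of C1qa 1.31 and that of C1qc 0.980. T cell barcodes had 118 CPM of Apoe in shSdc1 and 60.1 CPM in shRFP, with a UMI in 5.23% and 2.11% of them. They had 58.6 and 52.9 CPM of C1qa, with a UMI in 1.79% and 1.12%. The background of Apoe was thus also higher in shSdc1, and its part in the members' ratio was not tested. The C1q and Ccl8 class, the richest source of these transcripts, was itself larger in shSdc1, and its part in these ratios was not tested.

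Of 8 MHC class II genes 2 were at least 1.5-fold higher, H2-Ab1 and H2-DMb2, and 1, Ciita, lower; the median log2 ratio was 0.38. H2-Ab1 had 4242 CPM in shSdc1 members and 2823 CPM in shRFP members, a ratio of 1.503 [1.38 to 1.64]. Ciita, the activator of these genes, had 2 and 18 UMIs. The gene list of type 2 dendritic cells was also higher in shSdc1, with a ratio of 1.99 [1.58 to 2.50]. Mgl2 alone gave 414 of its 674 CPM in shSdc1 members and 151 of its 338 CPM in shRFP members. In members without a UMI of the list the MHC class II median was 0.26. The interferon gamma list had 4 of 9 higher and 0 lower, with a median of 0.44, and Irf1, an interferon-induced transcription factor, had 248 and 107 CPM, a ratio of 2.31 [1.55 to 3.39]. Of 21 type I interferon genes 6 were higher and 1 lower, with a median of 0.19. Cxcl9, a chemokine induced by interferon gamma, had 38 UMIs in shSdc1 and 60 in shRFP, a ratio of 2.58 [1.67 to 3.94], but 1 barcode held 34.2% and 28.3% of them.

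Genes of suppressive myeloid cells split. Arg1 had 1882 CPM in shSdc1 members and 1022 CPM in shRFP members, a ratio of 1.84 [1.61 to 2.10]. Acod1, which makes itaconate, had 259 and 127 CPM, a ratio of 2.04 [1.39 to 2.94]. Trem2, a lipid receptor, and Nos2, the inducible nitric oxide synthase, were also past 1.5-fold higher, whereas Arg2 and Nt5e were lower, giving 4 higher and 2 lower of 10. Mgl2, a lectin gene of type 2 dendritic cells and of alternatively activated macrophages, had 414 and 151 CPM, a ratio of 2.74 [2.005 to 3.73]. Among members with the other 3 sums at 0 that ratio was 1.36. Ccl17, a chemokine gene of dendritic cells, had 25 and 28 UMIs, a ratio of 3.64 [2.03 to 6.47], and 1 barcode held 32.0% and 28.6% of them. Anpep, the aminopeptidase CD13, had the same counts as Ccl17. Rhoc, a small GTPase gene, had a ratio of 3.18 [1.94 to 5.17] and Ccl5, a T cell chemokine gene, of 2.62 [1.55 to 4.35]. For Ccl5 1 barcode held 29.6% of the UMIs in shSdc1 and 7.14% in shRFP. Among members without a UMI of the type 2 dendritic cell list, 134 in shSdc1 and 678 in shRFP, 586 genes were higher and 871 lower.

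Part of the heat shock genes were lower in shSdc1 members. Of 13 measured, 6 were at least 1.5-fold lower and 0 higher, and the median log2 ratio was -0.58. Hspa1a, an inducible Hsp70 gene, had 351 CPM in shSdc1 members and 815 CPM in shRFP members, a ratio of 0.431 [0.325 to 0.561]. Hspa1b, its near-identical copy, had 351 and 729 CPM, a ratio of 0.482 [0.363 to 0.629], and the split of reads between both copies is uncertain. Dnajb1, a cochaperone gene, had 4 and 63 UMIs, a ratio of 0.259 [0.068 to 0.696], and reached the minimum mainly through shRFP. The same list had medians of -0.86 in the monocyte class, -0.64 in the hypoxic class and -0.63 in the C1q and Ccl8 class, all below the all-gene medians of those classes, -0.11, -0.01 and -0.01. In T cell barcodes Hspa1a had 256 CPM in shSdc1 and 565 CPM in shRFP. Among the 28 and 89 members with the other 3 sums at 0, Hspa1a had a ratio of 1.02 and Hspa1b of 1.66. These ratios come from few members and have no interval. Over all shSdc1 members 1 barcode held 19.7% of the Hspa1a UMIs and 27.9% of the Hspa1b UMIs, against 4.16% and 3.68% in shRFP.

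Matrix genes went both ways, with 3 higher and 4 lower of 13. Fn1 had 1002 CPM in shSdc1 members and 1789 CPM in shRFP members, a ratio of 0.560 [0.475 to 0.657]. Tgfbi, a matrix protein gene induced by TGF-beta, had 766 and 1331 CPM, a ratio of 0.575 [0.476 to 0.690]. Spp1 had a ratio of 0.657 [0.606 to 0.711] and Vcan, the versican gene of monocytes, of 0.509 [0.293 to 0.834]. Mmp12, the macrophage elastase gene, was higher, with 996 and 641 CPM, a ratio of 1.55 [1.29 to 1.85]. Fn1 was lower in shSdc1 in all 4 classes, with ratios of 0.811 in the monocyte, 0.689 in the hypoxic and 0.351 in the C1q and Ccl8 class. Tgfbi had a ratio of 0.619 in the hypoxic class, 1.12 in the monocyte class and 1.03 in the C1q and Ccl8 class.

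Tlr2 and Myd88, genes that sense microbial and damage products, were lower in shSdc1 members. Of 18 C-type lectin and pattern recognition genes 5 were past 1.5-fold lower and 0 higher, and the median log2 ratio was -0.25. Tlr2, the lipoprotein receptor gene, had 219 CPM in shSdc1 members and 381 CPM in shRFP members, a ratio of 0.573 [0.397 to 0.807]. Myd88, the adaptor of Toll-like receptors, had 46.1 and 100.3 CPM, a ratio of 0.459 [0.191 to 0.954]. Clec5a, Tlr4 and Traf6 had 5, 3 and 1 UMIs in shSdc1 and 55, 19 and 20 in shRFP. These 3 reached the minimum of 20 UMIs mainly through shRFP, where they were higher, so the count of lower genes is no support for a direction of the list. Of the chemokine genes, Ccl3 and Ccl6 were lower, with ratios of 0.656 [0.566 to 0.757] and 0.644 [0.564 to 0.734]. Ctsc, which encodes cathepsin C, had a ratio of 0.577 [0.474 to 0.697]. It was the only 1 of 13 lysosomal cathepsin list genes past 1.5-fold lower, whereas 2, Ctsk and Cd63, were higher. The median log2 ratio of that list was 0.35. Of 24 hypoxia and glycolysis genes 3 were lower and 1 higher, with a median log2 ratio of -0.03. Over all genes measured 16.1% were lower and 12.9% higher, so these counts do not set the list apart. Slc2a1, the glucose transporter gene, had 207 and 339 CPM, a ratio of 0.611 [0.418 to 0.870], whereas Ldha, the lactate dehydrogenase gene, had a ratio of 1.12 [0.976 to 1.27].

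The lowest genes by interval bound, among those with at least 50 UMIs, had few UMIs in shSdc1. Below that minimum, 12 measured genes were at 0 in shSdc1. Agps, an enzyme gene of ether lipid synthesis, had 1 UMI in shSdc1 members and 49 in shRFP members, a ratio of 0.083 [0.002 to 0.485]. Cops6, a subunit gene of the COP9 signalosome, had 2 and 55, and Upp1, uridine phosphorylase, had 4 and 71. Nab1, a corepressor of EGR factors, had 5 and 74, and Insig1, a regulator of sterol synthesis, had 6 and 80. Their ratios were 0.148, 0.230, 0.275 and 0.306. Like Agps, these genes reached the minimum of 50 UMIs mainly through shRFP, where they were higher. All are extremes picked from 2441 ranked genes, so their ratios are no support for a difference. Sdc1 itself, the target of the hairpin in the tumor cells, had 9 UMIs in shSdc1 members and 36 in shRFP members, which is 51.8 and 50.9 CPM, a ratio of 1.02 [0.431 to 2.16]. The members are host cells, so this value does not check the hairpin. Of 7 syndecan and heparan sulfate genes measured 1, Sdc3, was past 1.5-fold, with 334 CPM in shSdc1 members and 192 CPM in shRFP members.

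**Figure D5:**
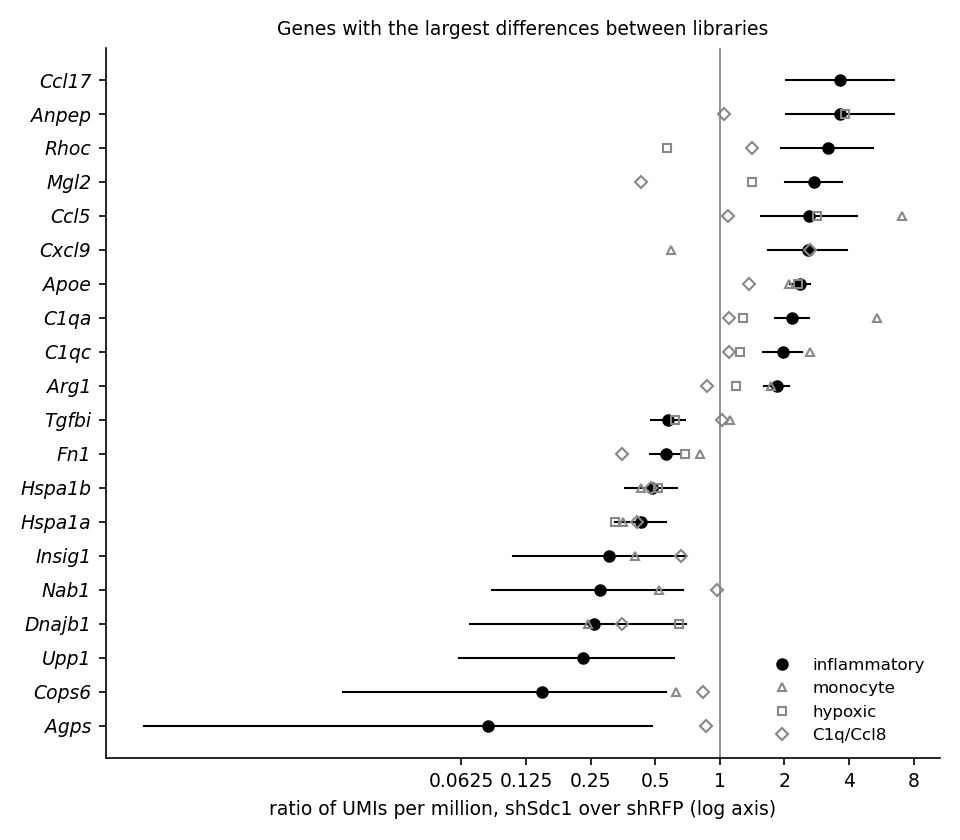
Ratio of CPM, shSdc1 over shRFP on a log axis, for the 10 highest and 10 lowest genes chosen by the interval bound nearest to 1, with exact 95% intervals for the inflammatory macrophages (filled) and the ratios in the other 3 classes (open) where they had at least 20 UMIs. The Hspa1a and Hspa1b ratios lie below 1 in all 4 classes, whereas Mgl2 is above 1 in the members and below 1 in the C1q and Ccl8 class.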

How the data were processed

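Single-cell RNA sequencing of sorted CD45+ tumor cells was analysed in 2 libraries, 1 per group. Both deposited matrices hold unnormalized UMI counts. Per the file headers they were written by Cell Ranger 6.1.1, and the submitters' processing notes name build mm10. Which annotation release was used: not given in the sources used here. Of 31253 features, 31107 (99.5%) matched GENCODE M21 by identifier. In shSdc1 276 barcodes had under 200 genes and 74 too many mitochondrial UMIs, against 530 and 46 in shRFP. Counts were summed over members per library and scaled to 1000000. Intervals are exact Poisson for CPM, Clopper-Pearson for shares and conditional binomial for ratios. The ratio intervals were run on simulated independent Poisson counts. That run shares the intervals' own assumption and does not cover UMIs that cluster in single barcodes. PCR duplicates are collapsed by UMIs, and intervals cover counting error only. Doublets were scored with Scrublet in scanpy 1.11.5. Its automatic threshold marked 1 barcode in each library and so had not worked. No barcode was removed for it, and as an alternative the 249 and 218 barcodes with the highest scores (0.8% per 1000 barcodes) were left out, of which 5 and 33 were members. Other tools were Python 3.11.15, numpy 2.4.6, scipy 1.17.1, pandas 2.3.3, matplotlib 3.10.9 and edgeR 4.0.16, used only for TMM factors.

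The members and gene lists were chosen with earlier results of these data known. Of the listed genes, Il36g, Clec7a and Mx2 were not matched in the files. List medians leave out genes of the rule. Genes were named by a rule: between libraries, the 10 highest and 10 lowest by the interval bound nearest to 1 among genes that reached 50 UMIs over the 2 libraries and were at least 1.5-fold apart; over classes, genes with at least 50 UMIs over the 4 classes in each library and at least 2-fold apart from each class, ordered by the smallest fold. Left out of both were genes of the 4 sums, antigen receptor and hemoglobin genes, ribosomal and mitochondrial genes, Y-linked genes, Xist and unnamed gene models. List members could be named besides. Alternatives changed the sum's threshold and genes, the gene minimum, depth, doublets, scaling, weighting, UMI minimum, single barcodes, and members with transcripts of other cell types.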

Additional observations from a re-analysis of the deposited data

Results flagged for a closer look

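Barcodes removed by the gene and mitochondrial filters were not used in the comparisons above, and some held inflammatory transcripts. Of 326 removed barcodes in shSdc1, 32 had at least 4 UMIs of the 5 genes, which is 9.82% [6.81 to 13.6]. In shRFP it was 40 of 561, which is 7.13% [5.14 to 9.58]. Their median depths were 245 UMIs in shSdc1 and 248.5 UMIs in shRFP. The share was higher in shSdc1, but the intervals overlap, and what these barcodes are was not tested.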

How the results depend on the processing

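The ratio of shares among kept barcodes, shSdc1 over shRFP, lay between 0.193 and 0.256 when the sum, its genes, the gene minimum, depth or doublets were changed. It was 0.185 for members without a type 2 dendritic cell UMI, 0.224 without a neutrophil UMI and 0.295 with the other 3 sums at 0. Among the 4 classes it was 0.262 with a sum of at least 6 and 0.25 with Il1b left out of the sum, against 0.318. Numbers of genes past 1.5-fold moved with the UMI minimum: 186 higher and 259 lower with at least 50 UMIs, and 2722 higher and 3630 lower with none. In members with the other 3 sums at 0 they were 111 and 167, with fewer cells and fewer genes measured. Without the top barcode of each gene 353 were higher and 1136 lower, a setting that takes a larger part from shSdc1 because it has fewer members. TMM scaling gave 507 higher and 1021 lower, against 651 and 810. In those members with the other sums at 0 the ratio was 0.980 for C1qc, 1.02 for Hspa1a and 1.66 for Hspa1b, the opposite side of 1. These were 28 members in shSdc1 and 89 in shRFP, without intervals, and the cause was not tested. The 5 genes lower than in every other class became 3 with at least 50 UMIs, 1 with sums of at least 6, 2 with at least 500 genes, 1 with barcodes weighted alike and 3 without members holding neutrophil UMIs. Upp1 had a ratio of 0.137 and Insig1 of 0.14 with a sum of at least 6. Dnajb1 had 0.096 with at least 500 genes and 0.403 without members holding a type 2 dendritic cell UMI. For each list a range was formed from the medians of its genes' lower and upper ratio bounds. Of the list medians 325 stayed within that range and 4 moved beyond it. The range is wide, from -1.07 to 1.08 on the log2 scale for the inflammasome list. Staying within it thus says little about how stable a median is. Leaving out members with a type 2 dendritic cell UMI, weighting the subsets alike, the shares of the 3 subsets and the T cell background with Lyz2 were chosen after seeing the data. No paired analysis was possible because each group was 1 library, and no replicate could be left out. Genes under 20 UMIs were too shallow to compare.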
